A study of Mus musculus with 12 samples.

Results

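The DNA replication genes were a set of 43 mouse genes whose products prepare replication origins, unwind and copy DNA, supply its nucleotides or admit a cell to S phase. All 43 were found by gene symbol among the 54532 genes of the deposited table. All 43 also reached 1 FPKM (fragments per kilobase of gene, scaled per library) in at least 3 of the 12 libraries, as did 11335 genes in all. The RNA came from bone-marrow-derived macrophages of wild-type (WT) mice and from osteoclasts, the multinucleated bone-resorbing cells that such macrophages form with the cytokine RANKL. Every culture held CMG, a source of the growth factor M-CSF, and the osteoclast source is labelled with 100 ng/mL RANKL. On day 5 each cell type was left untreated or given 100 ng/mL lipopolysaccharide (LPS, from the bacterial outer membrane) for 3 h, with 3 libraries in each of the 4 groups. The labels used here name no strain, sex or age, and they do not say whether the 3 libraries of a group came from separate mice or cultures. The p-values therefore measure only the spread between these libraries, which may be technical.

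DNA replication starts in G1, when the origin recognition complex with Cdc6 and Cdt1 loads the ring-shaped Mcm helicase onto origins, a step called licensing. At the entry into S phase, cyclin E kinase activity, Mcm10, Cdc45 and the Gins complex turn the loaded ring into a moving helicase, and polymerases copy both strands on the sliding clamp Pcna. Many of these genes are known targets of E2F transcription factors. Macrophages of the marrow divide in culture with M-CSF, whereas mature osteoclasts form by fusion of precursors and are generally regarded as cells that no longer divide.

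The libraries held between 15651759 and 20281444 recovered reads. The summed level of 9 osteoclast markers, such as cathepsin K (Ctsk), lay between 12.3 and 26.8 FPKM in the macrophage libraries and between 28431 and 31439 FPKM in the osteoclast libraries. The summed level of 7 macrophage markers, such as F4/80 (Adgre1), was 1678 to 1680 FPKM in untreated macrophages, 2501 to 2551 with LPS, 362 to 368 in untreated osteoclasts and 383 to 419 in LPS-treated osteoclasts. Both cell types thus carried their labelled markers. The macrophage sum in untreated osteoclasts was mostly Csf1r, at a mean of 310 FPKM, followed by Adgre1 at 33.1 FPKM, while Mrc1 stood at 2.57 and Cx3cr1 at 0.486 FPKM. In bulk RNA, fewer cells of a type and less RNA per cell cannot be told apart. The summed level of 5 stromal markers was 25.3 to 35.3 FPKM in the macrophage groups against 0.211 to 0.880 FPKM in the osteoclast groups; it was led by collagen Col1a1, while Dcn and Pdgfra were under 1 FPKM in every library. A sum of 5 neutrophil markers was 4.08 to 11.8 FPKM in macrophages and 0.170 to 1.62 FPKM in osteoclasts, and 3 lymphocyte and 3 erythroid markers were each under 1 FPKM in all 12 libraries. The part of these other cells in the results was not tested.

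Replication genes were lower in osteoclasts almost throughout the set. In untreated osteoclasts 41 of the 43 genes were lower than in untreated macrophages and none was higher, and the median gene stood at 27.7% of its macrophage level. Of all 11335 genes tested, 39% were called lower and 38.8% higher in that comparison (adjusted p under 0.05 in limma, a linear model fitted to log2(FPKM + 1) across all genes). In macrophages, 3 h of LPS lowered 29 of the 43 genes and raised 1, Mcm10, against 33.1% lower and 36.8% higher among all genes. The share of replication genes called in either direction there, 69.8%, was close to the 69.9% of all genes; 67.4% of the set were lower. In osteoclasts, LPS lowered 2 of the 43 genes, thymidine kinase Tk1 and licensing factor Cdt1, and raised none, while 6.59% of all genes fell and 11.1% rose. With LPS in both cell types, 34 replication genes were lower and 3 higher in osteoclasts, against 43% and 40.9% of all genes. The interaction (osteoclast LPS effect less the macrophage LPS effect) was positive for 20 genes and negative for 1, against 26.6% and 30% of all genes.

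The median log2 difference of the 43 genes, on the log2(FPKM + 1) scale, was -1.49 between untreated osteoclasts and macrophages, where that of all genes tested was 0.00. It was -0.40 for LPS in macrophages (all genes 0.02) and -0.09 for LPS in osteoclasts (all genes 0.01). It was -1.08 between the LPS-treated cell types (all genes -0.02) and 0.27 for the interaction (all genes -0.01). The deposited values appeared, from their steps, to be scaled so that the typical gene does not change. Rescaling every library to the same summed level (TPM) moved the median of all genes to -0.38 between the untreated cell types, to -0.55 for LPS in macrophages, to 0.12 between the LPS-treated cell types and to 0.51 for the interaction; quantile normalization moved it to -0.14 for LPS in macrophages. Relative to the median of all genes, the median replication gene was at -1.49, -1.73 and -1.49 between the untreated cell types as deposited, under TPM and under quantile normalization. For LPS in macrophages these values were -0.43, -0.51 and -0.52, and for the interaction they were 0.29, 0.36 and 0.48. Of all genes called for LPS in macrophages, 52.6% were higher as deposited, 18.5% under TPM and 37.0% under quantile normalization; between the untreated cell types the share was 49.9% as deposited and 29.9% under TPM. For LPS in osteoclasts it was 62.8%, 43.5% and 38.5%, and for the interaction 47.0%, 82.0% and 59.9%. Under TPM all 43 replication genes were called lower in untreated osteoclasts, Cdt1 and Rfc2 among them. Under TPM 42 of the 43, all but Mcm10, were also called lower with LPS in macrophages, which takes in the 13 genes that were not called there as deposited, and 41 had a positive interaction. Under quantile normalization 34 were lower with LPS in macrophages and 30 had a positive interaction. The set lay below the typical gene in untreated osteoclasts and in LPS-treated macrophages under each scaling, whereas the number of single genes called depended on it. TPM multiplies all values of a library by the same factor. Apart from the pseudocount, it could not move the set relative to the typical gene, so its values on that measure are no separate support.

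**Figure D1:**
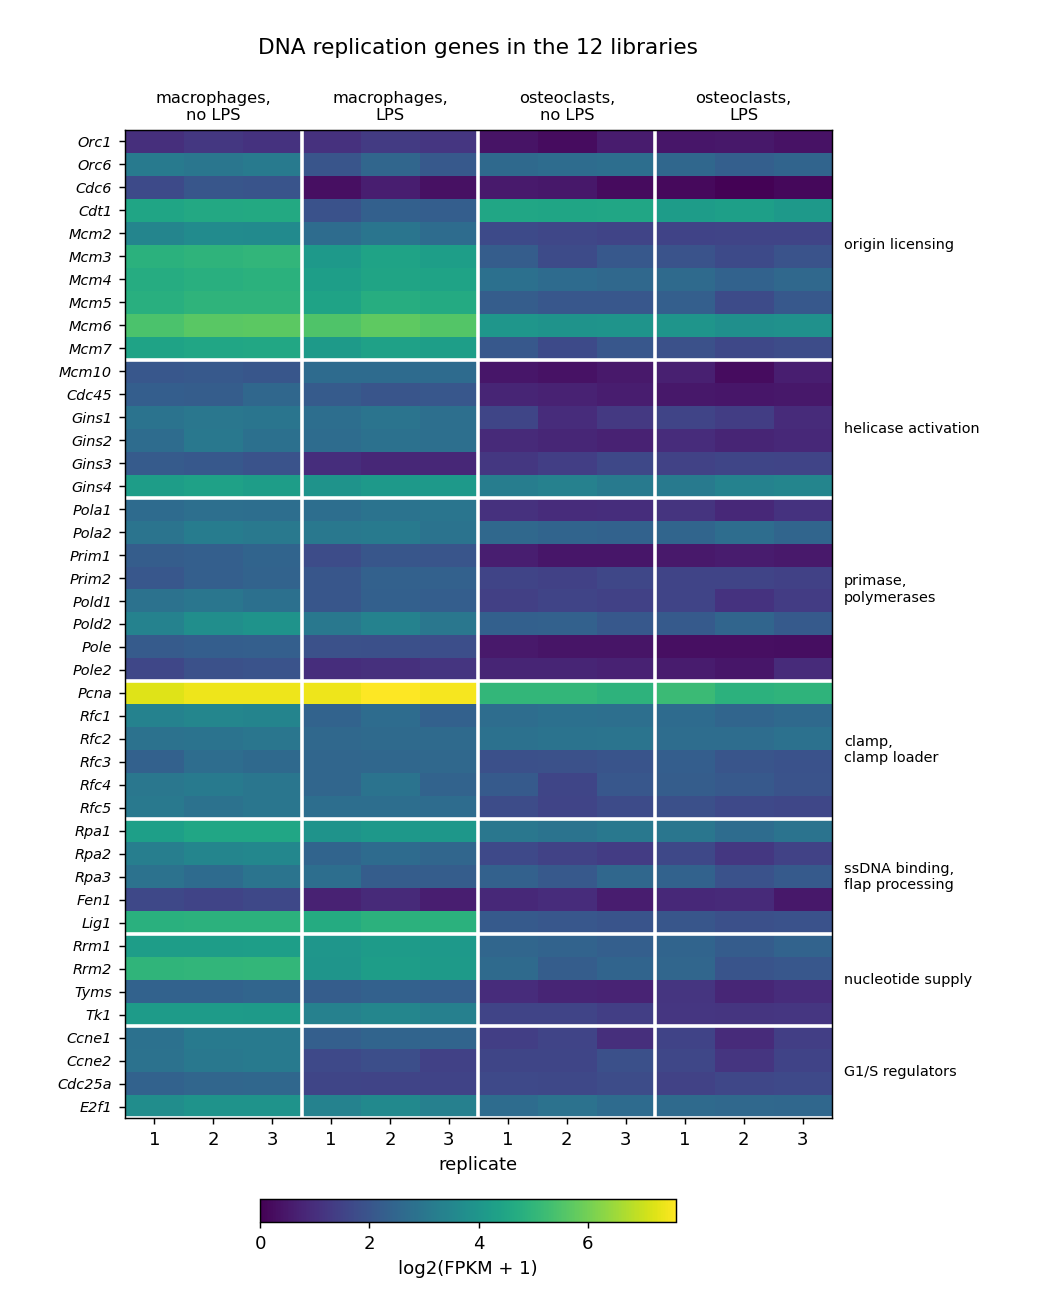
Level of each of the 43 DNA replication genes in each library, as log2(FPKM + 1) by colour, with genes in rows by role and replicates in columns by group. The macrophage columns are brighter than the osteoclast columns for most genes; Cdt1 is darkest in LPS-treated macrophages, and Pcna as the brightest row.

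The promoters of the set often held E2F-type motifs. RefSeq windows from 250 bases before to 50 after an annotated start (build GRCm38.p6) were matched for 35 of the 43 genes; the others were Mcm4, Gins1, Gins2, Gins4, Prim2, Pole, Rfc2 and Ccne2. The motifs TTTGGCGC, TTTCGCGC, TTTCCCGC, TTTGGCGG, TTCCCGCC and TTGGCGGG, which overlap one another in part, were searched on both strands. At least 1 of them was present for 20 of the 35 genes, or 57.1%, compared with 841 of 8442 genes tested that had a window, or 9.96%, and 5.24% of all genes with a window. The median GC content of the windows was 58.8% for the set and 60.7% for all genes tested. Another 65 replication genes, chosen as a second list, held a motif in 21 of 53 cases (39.6%), and 20 mitosis genes in 1 of 16 (6.25%). The following stretches are all those of the set with a motif upstream of the RefSeq start and no annotated exon within the stretch. Each is written 5′ to 3′ on the gene's strand, with the motif matches in capitals.
Cdc6, chr11:98907987-98908046, plus strand: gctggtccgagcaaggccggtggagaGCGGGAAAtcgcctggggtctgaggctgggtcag
Mcm5, chr8:75109330-75109393, plus strand: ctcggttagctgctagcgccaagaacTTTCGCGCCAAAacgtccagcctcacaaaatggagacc
Mcm6, chr1:128359719-128359841, minus strand: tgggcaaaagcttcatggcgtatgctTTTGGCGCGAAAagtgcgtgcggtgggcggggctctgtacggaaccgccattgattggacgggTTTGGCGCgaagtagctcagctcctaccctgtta
Pola1, chrX:93632260-93632319, minus strand: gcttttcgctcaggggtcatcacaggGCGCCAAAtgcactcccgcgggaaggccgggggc
Rrm1, chr7:102441602-102441661, plus strand: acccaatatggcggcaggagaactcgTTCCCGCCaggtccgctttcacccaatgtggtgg
Cdc25a, chr9:109875486-109875545, plus strand: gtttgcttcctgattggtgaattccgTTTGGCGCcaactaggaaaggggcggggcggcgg
The stretches of Mcm5 and Mcm6 each held overlapping matches on both strands, and that of Mcm6 held a further match closer to the start. A match describes the letters in the window and is not a bound site. Among the 20 genes with a motif, LPS lowered 12 in macrophages and 8 were not called; among the 15 with a window and no such motif, 12 fell, 1 rose and 2 were not called. Between the untreated cell types the median log2 difference was -1.42 with a motif and -1.62 without. The difference between genes with and without a motif was not tested.

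Licensing genes held both the lowest log2 difference between the untreated cell types, that of Mcm3, and a gene that was not called there, Cdt1. Of the 10, 9 were lower in untreated osteoclasts and 6 fell with LPS in macrophages. Cdt1 (ENSMUSG00000006585, on the plus strand of GRCm38 chromosome 8 from 122568015 to 122573554) delivers the helicase to origins. It measured 21.2, 23.1 and 23.8 FPKM in the 3 untreated macrophage libraries and 2.77, 4.03 and 3.85 FPKM with LPS. In osteoclasts it measured 21.6, 21.4 and 21.9 FPKM untreated and 17.3, 18.6 and 15.9 FPKM with LPS. The LPS-treated macrophages stood far below the other groups, and the untreated groups overlapped. LPS changed Cdt1 in macrophages by a log2 difference of -2.39 ± 0.10 (limma adjusted p = 4.11e-10), where ± gives the standard error (SE) of the fit to 3 libraries a group, leaving 15.7% of its mean level. In osteoclasts the log2 difference was -0.31 ± 0.10 (limma adjusted p = 0.0446); the libraries of both osteoclast groups did not overlap, but the call was lost in 8 of 15 alternatives, among them all of those that left out a library except LPS-treated replicate 2, and the adjusted p over the alternatives ran from 0.00199 to 0.133. Between the untreated cell types its log2 difference was -0.06 ± 0.10 (limma adjusted p = 0.563), which was not called; under TPM it was called lower in osteoclasts, at -0.48 (limma adjusted p = 0.00167). With LPS in both cell types Cdt1 was higher in osteoclasts, by a log2 difference of 2.01 ± 0.10 (limma adjusted p = 9.48e-10).

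Cdc6, the partner of Cdt1 in helicase loading, was low in LPS-treated macrophages and in untreated osteoclasts alike. Untreated macrophages measured 2.28, 3.1 and 2.92 FPKM, and the LPS-treated ones 0.240, 0.564 and 0.272 FPKM. Untreated osteoclasts measured 0.477, 0.396 and 0.158 FPKM and LPS-treated osteoclasts 0.135, 0.0248 and 0.115 FPKM, the latter from 14, 2 and 11 reads. The untreated macrophages lay above all other groups. The log2 difference was -1.47 ± 0.12 (limma adjusted p = 4.17e-07) for LPS in macrophages and -1.49 ± 0.12 (limma adjusted p = 2.64e-07) between the untreated cell types. The LPS effect in osteoclasts, -0.29 ± 0.12 (limma adjusted p = 0.131), was not called although the 2 groups did not overlap. The log2(FPKM + 1) scale understates the change of so low a gene. Mean Cdc6 with LPS was 26.7% of its untreated level in osteoclasts and 13.0% in macrophages.

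All 6 subunits of the Mcm ring were lower in osteoclasts, and Mcm2, Mcm3 and Mcm4 fell with LPS in macrophages, where Mcm5, Mcm6 and Mcm7 were not called. Mcm3 (ENSMUSG00000041859, minus strand of chromosome 1, 20802968 to 20820312) had the lowest log2 difference of the set between the untreated cell types, -2.91 ± 0.12 (limma adjusted p = 4.11e-10). It measured 27.9, 29.7 and 31.3 FPKM in untreated macrophages, 16.4, 20.3 and 18.1 with LPS, 3.75, 2.32 and 3.28 in untreated osteoclasts and 2.83, 2.25 and 2.85 in LPS-treated osteoclasts. The macrophage groups were separate from each other and from the osteoclasts, whose groups overlapped. LPS lowered Mcm3 in macrophages by a log2 difference of -0.67 ± 0.12 (limma adjusted p = 0.000368). Mcm5 measured 27.1, 29.7 and 29.8 FPKM in untreated macrophages, 20.5, 26 and 24.3 with LPS, 3.79, 3.23 and 3.15 in untreated osteoclasts and 3.9, 2.36 and 3.24 in LPS-treated osteoclasts. It was lower in osteoclasts by a log2 difference of -2.77 ± 0.12 (limma adjusted p = 7.32e-10), and although the macrophage groups did not overlap, its LPS effect there, -0.28 ± 0.12 (limma adjusted p = 0.0587), was not called.

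Mcm6 was the most abundant licensing gene. Its macrophage levels were 42.5, 49.7 and 50.7 FPKM untreated and 44.4, 51.9 and 46.9 FPKM with LPS, and its osteoclast levels were 15.1, 13.9 and 14.4 FPKM untreated and 14.5, 12.7 and 13.4 FPKM with LPS. The LPS-treated libraries overlapped the untreated ones in each cell type, while all macrophages lay above all osteoclasts. Its log2 difference for LPS in macrophages was 0.00 ± 0.08 (limma adjusted p = 0.961), which turned to -0.64 under TPM and -0.61 under quantile normalization, so that its direction rests on the scaling. The log2 difference between the untreated cell types was -1.65 ± 0.08 (limma adjusted p = 9.16e-10). The ratio of Mcm6 to Mcm2, which does not depend on the scaling of a library, was 4.21 to 4.38 in untreated macrophages and 7.63 to 8.61 in LPS-treated ones. It was 6.67 to 7.34 in untreated and 6.57 to 7.58 in LPS-treated osteoclasts. The untreated macrophages thus had the lowest ratio of the 4 groups with no overlap, which shows unequal change of these 2 subunits and not which one changed. Mcm7 measured 20.3, 21.8 and 22.6 FPKM in untreated macrophages, 16.7, 19.3 and 18.2 with LPS, 3.28, 2.26 and 3.22 in untreated osteoclasts and 2.69, 2.15 and 2.41 in LPS-treated osteoclasts. Its log2 difference between the LPS-treated cell types was -2.48 ± 0.10 (limma adjusted p = 2.19e-10), and that for LPS in macrophages, -0.24 ± 0.10 (limma adjusted p = 0.0515), was not called. The log2 differences of Mcm2 and Mcm4 for LPS in macrophages were -0.81 and -0.41.

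The origin recognition complex was represented by its subunits Orc1 and Orc6. Orc1 measured 1.04, 1.34 and 1.19 FPKM in untreated and 1.13, 1.48 and 1.29 FPKM in LPS-treated macrophages, against 0.311, 0.187 and 0.490 FPKM in untreated and 0.377, 0.392 and 0.283 FPKM in LPS-treated osteoclasts. The macrophage groups overlapped and lay above the osteoclasts, with a log2 difference of -0.72 ± 0.10 (limma adjusted p = 2.19e-05) between the untreated cell types. The LPS effect on Orc1 in macrophages, 0.07 ± 0.10 (limma adjusted p = 0.548), was not called and was -0.41 under TPM. Orc6 measured 7.62, 7.01 and 7.88 FPKM in untreated macrophages, 3.01, 4.67 and 3.37 with LPS, 5.03, 5.46 and 5.77 in untreated osteoclasts and 4.87, 3.94 and 4.48 in LPS-treated osteoclasts. Untreated macrophages were highest and LPS-treated macrophages overlapped only the LPS-treated osteoclasts. LPS lowered Orc6 in macrophages by a log2 difference of -0.87 ± 0.11 (limma adjusted p = 2.01e-05), and the osteoclasts were lower than macrophages without LPS by -0.41 ± 0.11 (limma adjusted p = 0.00569).

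The genes that turn the loaded ring into a helicase split in their LPS response. All 6 were lower in untreated osteoclasts; in macrophages LPS lowered 3, raised 1 and left 2 uncalled. Mcm10 (ENSMUSG00000026669, minus strand of chromosome 2, 4989714 to 5012791) is needed for origin firing. It measured 3.22, 3.34 and 3.07 FPKM in untreated and 5.37, 5.38 and 5.28 FPKM in LPS-treated macrophages. Its osteoclast levels were 0.380, 0.300 and 0.436 FPKM untreated and 0.591, 0.186 and 0.548 FPKM with LPS. The LPS-treated macrophages were highest with no overlap, and the osteoclast groups overlapped. The log2 difference for LPS in macrophages was 0.59 ± 0.10 (limma adjusted p = 0.000172), the 1 rise of the set. The recovered reads before scaling were 574, 604 and 526 in untreated and 527, 618 and 571 in LPS-treated macrophages. They overlapped but are not corrected for the unequal depth of the libraries, so their overlap does not measure the level. The rise was not called under TPM. Between the untreated cell types the log2 difference of Mcm10 was -1.62 ± 0.10 (limma adjusted p = 1.25e-08).

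Gins3 (ENSMUSG00000031669, plus strand of chromosome 8, 95633453 to 95645060), a subunit of the Gins complex, measured 3.57, 3.28 and 2.85 FPKM in untreated and 0.983, 0.816 and 0.788 FPKM in LPS-treated macrophages. In osteoclasts its levels were 1.36, 1.68 and 2.11 FPKM untreated and 1.85, 1.99 and 1.96 FPKM with LPS. LPS-treated macrophages were below every osteoclast library, and the osteoclast groups overlapped. The log2 difference was -1.18 ± 0.10 (limma adjusted p = 3.55e-07) for LPS in macrophages, while the osteoclast LPS effect of 0.12 ± 0.10 (limma adjusted p = 0.458) was not called. Between the LPS-treated cell types Gins3 was higher in osteoclasts by a log2 difference of 0.66 ± 0.10 (limma adjusted p = 4.77e-05). Gins4, the most abundant subunit of the complex, measured 17.8, 19.6 and 18 FPKM in untreated macrophages, 14.1, 16.2 and 16.5 with LPS, 8.27, 9.08 and 7.63 in untreated osteoclasts and 7.86, 9.33 and 10.1 in LPS-treated osteoclasts. Its macrophage groups were separate and above the osteoclasts, with a log2 difference of -1.06 ± 0.09 (limma adjusted p = 2.64e-07) between the untreated cell types and -0.23 ± 0.09 (limma adjusted p = 0.0351) for LPS in macrophages. The call for LPS was lost in 4 of 15 alternatives: with no filter, without untreated macrophage replicate 2 or 3, and without LPS-treated macrophage replicate 1 (adjusted p up to 0.139). Gins1 and Gins2 were not called for LPS in macrophages, with log2 differences of -0.14 and -0.09, so the 4 subunits of 1 complex ranged from -1.18 to -0.09. Cdc45, the other helicase partner, fell by 0.27 on the log2 scale, a call lost without untreated macrophage replicate 3 or LPS-treated macrophage replicate 2 (adjusted p up to 0.0711).

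All 8 primase and polymerase genes were lower in untreated osteoclasts, and LPS lowered 5 of them in macrophages. Pola1, the catalytic subunit of the polymerase that extends the primer, measured 5.35, 5.9 and 5.79 FPKM in untreated and 5.73, 6.43 and 6.69 FPKM in LPS-treated macrophages, against 1.11, 0.953 and 0.988 FPKM in untreated and 1.21, 0.854 and 1.19 FPKM in LPS-treated osteoclasts. The macrophage groups overlapped above the osteoclasts, with a log2 difference of -1.73 ± 0.08 (limma adjusted p = 9.1e-10) between the untreated cell types. Its LPS effect in macrophages, 0.12 ± 0.08 (limma adjusted p = 0.18), was not called and was -0.48 under TPM. Pola2, its regulatory partner, measured 6.64, 8.14 and 7.52 FPKM in untreated macrophages, 7.26, 7.63 and 6.42 with LPS, 4.91, 4.45 and 4.2 in untreated osteoclasts and 4.55, 5.62 and 4.64 in LPS-treated osteoclasts. Within each cell type the groups overlapped, and between the untreated cell types the log2 difference was -0.61 ± 0.09 (limma adjusted p = 5.19e-05). Pold2, a subunit of polymerase delta, which copies the lagging strand, measured 9.33, 12.5 and 13.9 FPKM in untreated and 7.27, 9.47 and 7.17 FPKM in LPS-treated macrophages, with 4.06, 4.18 and 3.29 FPKM in untreated and 3.44, 4.55 and 3.47 FPKM in LPS-treated osteoclasts. It was called lower with LPS in macrophages although 1 LPS library reached into the untreated range, with a log2 difference of -0.52 ± 0.15 (limma adjusted p = 0.00739). The catalytic subunit of polymerase epsilon, Pole, which copies the leading strand, stood at 9.92% of its macrophage level in untreated osteoclasts, the lowest share of the 43.

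Pcna, the sliding clamp, was the most abundant gene of the set. It measured 151, 171 and 172 FPKM in untreated and 171, 194 and 182 FPKM in LPS-treated macrophages. Osteoclasts held 31.7, 31.9 and 29.3 FPKM untreated and 35.4, 28.5 and 30 FPKM with LPS. The groups overlapped within each cell type and did not overlap between them. The log2 difference was -2.37 ± 0.08 (limma adjusted p = 5.97e-11) between the untreated cell types and -2.51 ± 0.08 (limma adjusted p = 2.47e-11) between the LPS-treated ones. The LPS effect in macrophages, 0.15 ± 0.08 (limma adjusted p = 0.119), was not called, and it was -0.50 under TPM and -0.73 under quantile normalization.

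The clamp loader subunits Rfc1 to Rfc5, open Pcna and place it on DNA; all but Rfc2 were lower in untreated osteoclasts, and all but Rfc3 fell with LPS in macrophages, though the call of Rfc5 was lost without untreated replicate 1 or LPS-treated replicate 3. Rfc2, the subunit closest to its macrophage level, measured 6.24, 6.42 and 6.9 FPKM in untreated macrophages and 6.18, 6.38 and 6.61 FPKM in untreated osteoclasts. With LPS it measured 4.93, 5.25 and 5.19 FPKM in macrophages and 5.57, 5.62 and 6.15 FPKM in osteoclasts. The untreated cell types overlapped, with a log2 difference of -0.02 ± 0.05 (limma adjusted p = 0.684) that under TPM was -0.43 and called (limma adjusted p = 9.19e-05). LPS lowered Rfc2 in macrophages by a log2 difference of -0.30 ± 0.05 (limma adjusted p = 0.000295). An opposite-strand gene, Lat2, covers 15.1% of the Rfc2 exon length, and whether counting used the strand is not stated, so these levels are uncertain. Rfc1 measured 9.37, 10.3 and 9.73 FPKM in untreated macrophages, 4.38, 5.52 and 4.15 with LPS, 5.53, 6 and 5.87 in untreated osteoclasts and 5.35, 4.64 and 5.05 in LPS-treated osteoclasts. It was highest in untreated macrophages and lowest in LPS-treated ones, which overlapped the LPS-treated osteoclasts. LPS lowered Rfc1 in macrophages by a log2 difference of -0.93 ± 0.08 (limma adjusted p = 6.37e-07). Rfc3 measured 4.11, 5.64 and 5.01 FPKM in untreated macrophages, 4.69, 4.86 and 4.91 with LPS, 2.64, 2.67 and 2.95 in untreated osteoclasts and 3.86, 3.02 and 2.75 in LPS-treated osteoclasts. Its groups overlapped within each cell type, and its LPS effect was not called in macrophages or in osteoclasts (log2 differences -0.02 and 0.16). Rfc4 measured 7.09, 7.71 and 7 FPKM in untreated macrophages, 4.75, 6.42 and 4.41 with LPS, 3.43, 2.01 and 3.15 in untreated osteoclasts and 3.76, 3.39 and 2.82 in LPS-treated osteoclasts. LPS lowered it in macrophages by a log2 difference of -0.43 ± 0.15 (limma adjusted p = 0.0226), a call lost with no filter, without untreated replicate 2 and without LPS-treated replicate 1 or 3. The osteoclast LPS effect of 0.18 ± 0.15 (limma adjusted p = 0.471), the highest of the set, was not called.

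Lig1, the ligase that seals the fragments of the lagging strand, separated by cell type. It measured 27.2, 28.4 and 28.9 FPKM in untreated and 24.9, 28.8 and 27.9 FPKM in LPS-treated macrophages, against 3.42, 3.23 and 2.94 FPKM in untreated and 3.11, 2.66 and 2.81 FPKM in LPS-treated osteoclasts. The groups overlapped within each cell type. The log2 difference was -2.80 ± 0.07 (limma adjusted p = 2.5e-12) between the untreated cell types and -2.87 ± 0.07 (limma adjusted p = 1.47e-12) between the LPS-treated ones, and its LPS effect in macrophages (-0.05) was not called. Rpa3, the smallest subunit of the protein that coats single-stranded DNA, measured 6.3, 5.28 and 6.6 FPKM in untreated macrophages, 5.72, 3.72 and 3.76 with LPS, 4.1, 3.39 and 4.76 in untreated osteoclasts and 4.27, 2.74 and 3.47 in LPS-treated osteoclasts. It was lower in untreated osteoclasts by a log2 difference of -0.48 ± 0.16 (limma adjusted p = 0.0165), a call lost without untreated macrophage replicate 3 or untreated osteoclast replicate 2. LPS lowered Rpa3 in macrophages by a log2 difference of -0.40 ± 0.16 (limma adjusted p = 0.0411). That call was lost in 6 of 14 alternatives (limma adjusted p up to 0.14). Its partners Rpa1 and Rpa2 fell with LPS in macrophages by log2 differences of -0.43 and -0.86, as did the flap nuclease Fen1 (-0.87), most of whose exon length is also covered by a gene on the opposite strand.

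Genes of nucleotide supply had the lowest median of the 7 roles between the untreated cell types, a log2 difference of -2.20, with all 4 lower in osteoclasts. Rrm2, the regulatory subunit of ribonucleotide reductase, measured 30.7, 31.4 and 31.6 FPKM in untreated macrophages, 14.7, 17.9 and 16.8 with LPS, 5.22, 3.74 and 4.46 in untreated osteoclasts and 4.68, 2.9 and 3.16 in LPS-treated osteoclasts. Each macrophage group was separate from the others, and the osteoclast groups overlapped. Its log2 difference was -2.57 ± 0.13 (limma adjusted p = 2.91e-09) between the untreated cell types and -0.89 ± 0.13 (limma adjusted p = 7.64e-05) for LPS in macrophages. Tk1, which salvages thymidine, measured 17.2, 17.1 and 16.7 FPKM in untreated and 9.12, 10.3 and 8.99 FPKM in LPS-treated macrophages. In osteoclasts it measured 1.96, 1.96 and 1.64 FPKM untreated and 1.28, 1.24 and 1.3 FPKM with LPS. All 4 groups were separate. The log2 difference was -2.66 ± 0.06 (limma adjusted p = 1.83e-12) between the untreated cell types, -0.79 ± 0.06 (limma adjusted p = 1.67e-07) for LPS in macrophages and -0.33 ± 0.06 (limma adjusted p = 0.00248) for LPS in osteoclasts, the 1 osteoclast LPS call of the set that held in every alternative. Tyms, which makes thymidylate, measured 4.28, 4.26 and 4.55 FPKM in untreated macrophages, 3.69, 4.12 and 3.93 with LPS, 0.934, 0.729 and 0.705 in untreated osteoclasts and 1.24, 0.756 and 0.972 in LPS-treated osteoclasts. Its LPS effect was not called in macrophages (-0.13), although the groups did not overlap, or in osteoclasts (0.15). Rrm1, the large subunit of the reductase, had a log2 difference of -0.17 ± 0.07 (limma adjusted p = 0.0497) for LPS in macrophages, a call lost in 9 of 15 alternatives, with adjusted p from 7.61e-07 to 0.163.

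All 4 regulators of the entry into S phase were lower in untreated osteoclasts, and all 4 fell with LPS in macrophages. The second E-type cyclin, Ccne2, which activates the kinase Cdk2, measured 6.27, 7.2 and 7.57 FPKM in untreated macrophages, 2.2, 2.55 and 1.75 with LPS, 1.98, 1.98 and 2.61 in untreated osteoclasts and 2.05, 1.24 and 1.9 in LPS-treated osteoclasts. The untreated macrophages were highest, and the other 3 groups overlapped. LPS gave it a log2 difference of -1.34 ± 0.13 (limma adjusted p = 1.64e-06) in macrophages, against -1.33 ± 0.13 (limma adjusted p = 1.3e-06) between the untreated cell types. Cdc25a, the phosphatase that activates cyclin-dependent kinases, measured 4.27, 4.67 and 4.8 FPKM in untreated macrophages, 1.98, 1.97 and 1.87 with LPS, 2.19, 2.14 and 2.43 in untreated osteoclasts and 1.81, 2.09 and 2.17 in LPS-treated osteoclasts. Here too the untreated macrophages stood alone. LPS lowered Cdc25a in macrophages by a log2 difference of -0.92 ± 0.06 (limma adjusted p = 7.06e-08). E2f1, a transcription factor of the E2F family, measured 12.1, 13.9 and 13.9 FPKM in untreated macrophages, 9.46, 11.3 and 9.05 with LPS, 5.46, 6.29 and 5.3 in untreated osteoclasts and 5.25, 4.94 and 4.88 in LPS-treated osteoclasts. Its groups did not overlap, and the log2 difference was -0.39 ± 0.08 (limma adjusted p = 0.00109) for LPS in macrophages and -1.10 ± 0.08 (limma adjusted p = 1.02e-07) between the untreated cell types; the osteoclast LPS effect, -0.15 ± 0.08 (limma adjusted p = 0.26), was not called.

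**Figure D2:**
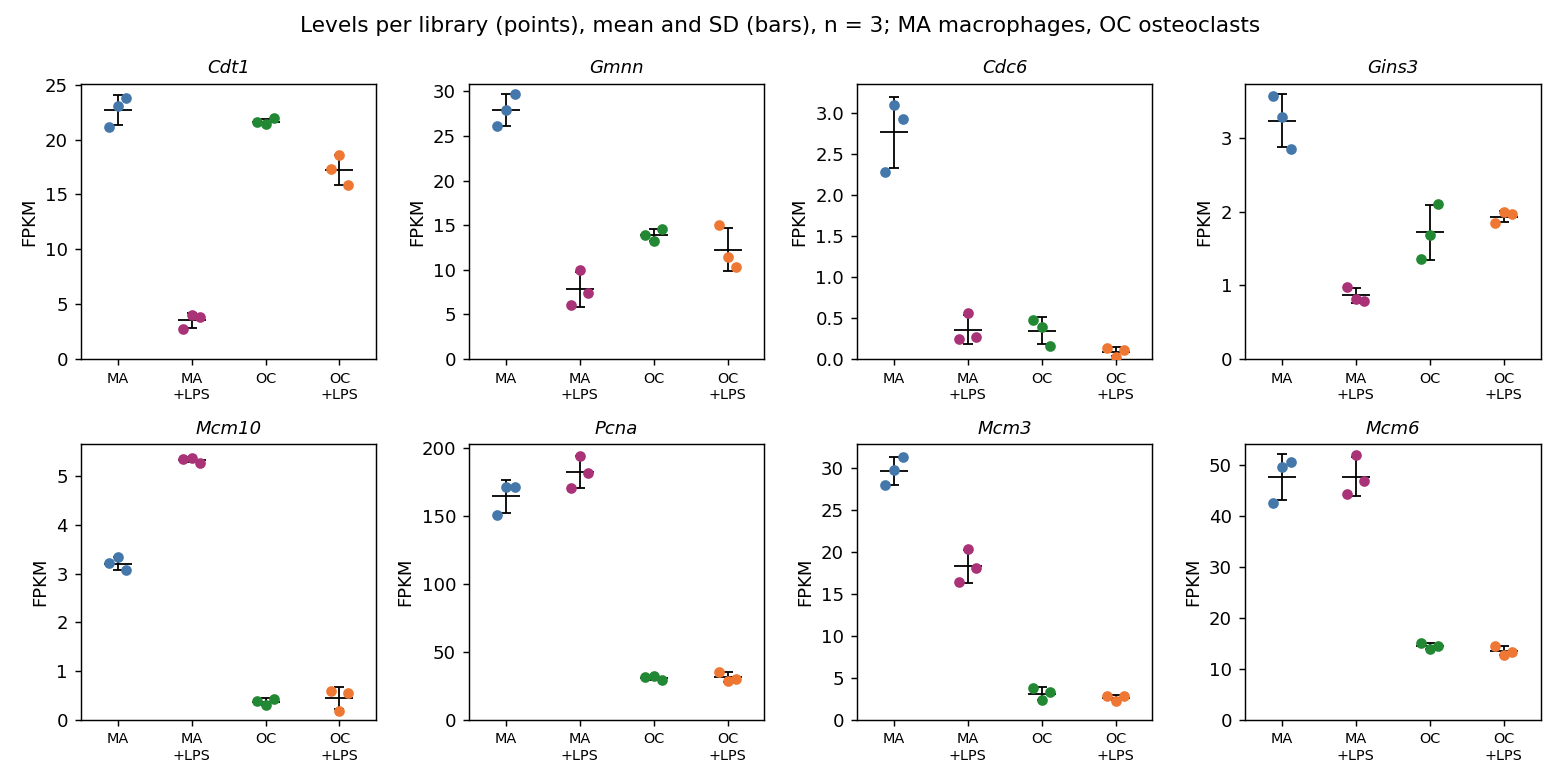
Level in FPKM of Cdt1, Gmnn, Cdc6, Gins3, Mcm10, Pcna, Mcm3 and Mcm6 in macrophages (MA) and osteoclasts (OC) without and with LPS; points are libraries, and bars give the mean and SD of 3. Cdt1 is lowest in LPS-treated macrophages, while Mcm3, Mcm6, Mcm10 and Pcna separate by cell type.

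The levels of the set in osteoclasts were set beside those of macrophage markers. Expressed as a percentage of the untreated macrophage mean, untreated osteoclasts held 9.92% of Pole, 18.8% of Pcna, 95.4% of Cdt1 and 98% of Rfc2. The macrophage markers ranged from 0.342% for Cx3cr1 and 0.877% for Mrc1 through 7.74% for Adgre1, 9.22% for Mertk and 14.9% for Cd14 to 70.4% for Csf1r, the M-CSF receptor. Of these 6 markers, Cx3cr1, Mrc1, Adgre1 and Mertk lay below Pole, the lowest replication gene on this measure, and Cd14 and Csf1r within the range of the set; Fcrls was at the read floor. The part of remaining macrophages in the osteoclast levels was not tested. In untreated osteoclasts 10 of the 43 genes were under 1 FPKM in all 3 libraries, and in LPS-treated osteoclasts 9; the filter, which asked for 1 FPKM in at least 3 libraries, kept these through the macrophages. Within the LPS-treated osteoclasts, replicate 2 had the lowest median replication gene, at 18.1% of the untreated macrophage mean against 28.9% and 23.8% in replicates 1 and 3. The same library had the lowest Adgre1 (42.5 FPKM against 73.1 and 70.9) and the lowest Mki67 (2.24 FPKM against 4.16 and 4.55), a proliferation marker.

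**Figure D3:**
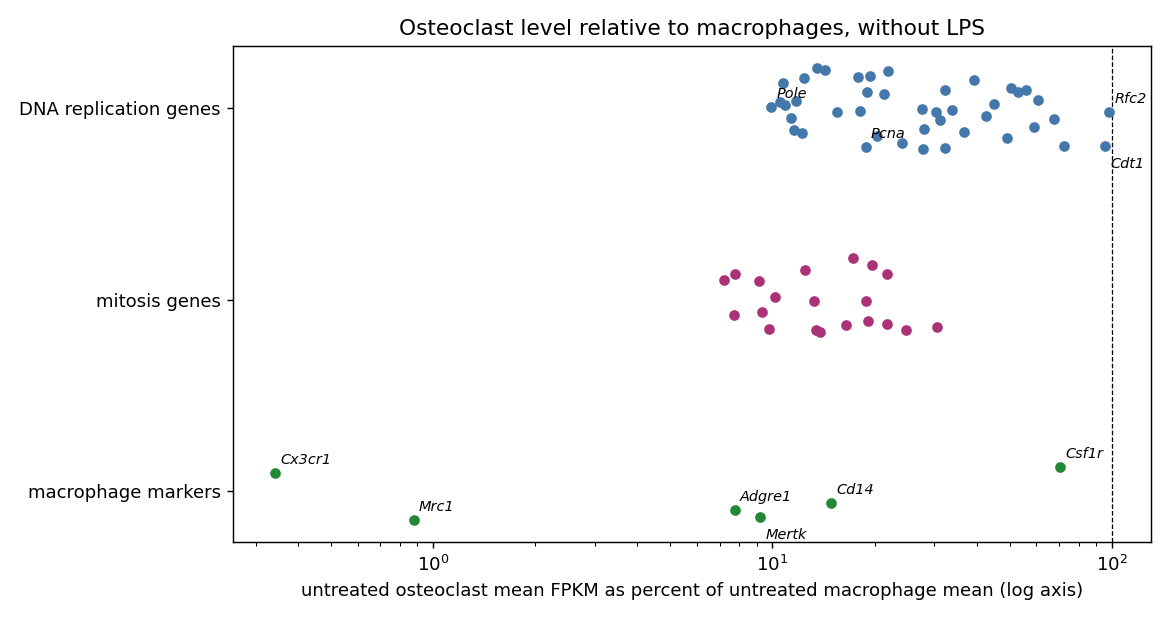
Mean FPKM in untreated osteoclasts as a percentage of the mean in untreated macrophages, on a log axis, for the 43 DNA replication genes, 20 mitosis genes and 6 macrophage markers; Fcrls, at the read floor in osteoclasts, is left out. Each point is a gene and its height within a row has no meaning; replication genes spread from 9.92% to 98.0%, the mitosis genes from 7.21% to 30.5%, inside that range for most of them, and the dashed line marks an equal level.

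**Figure D4:**
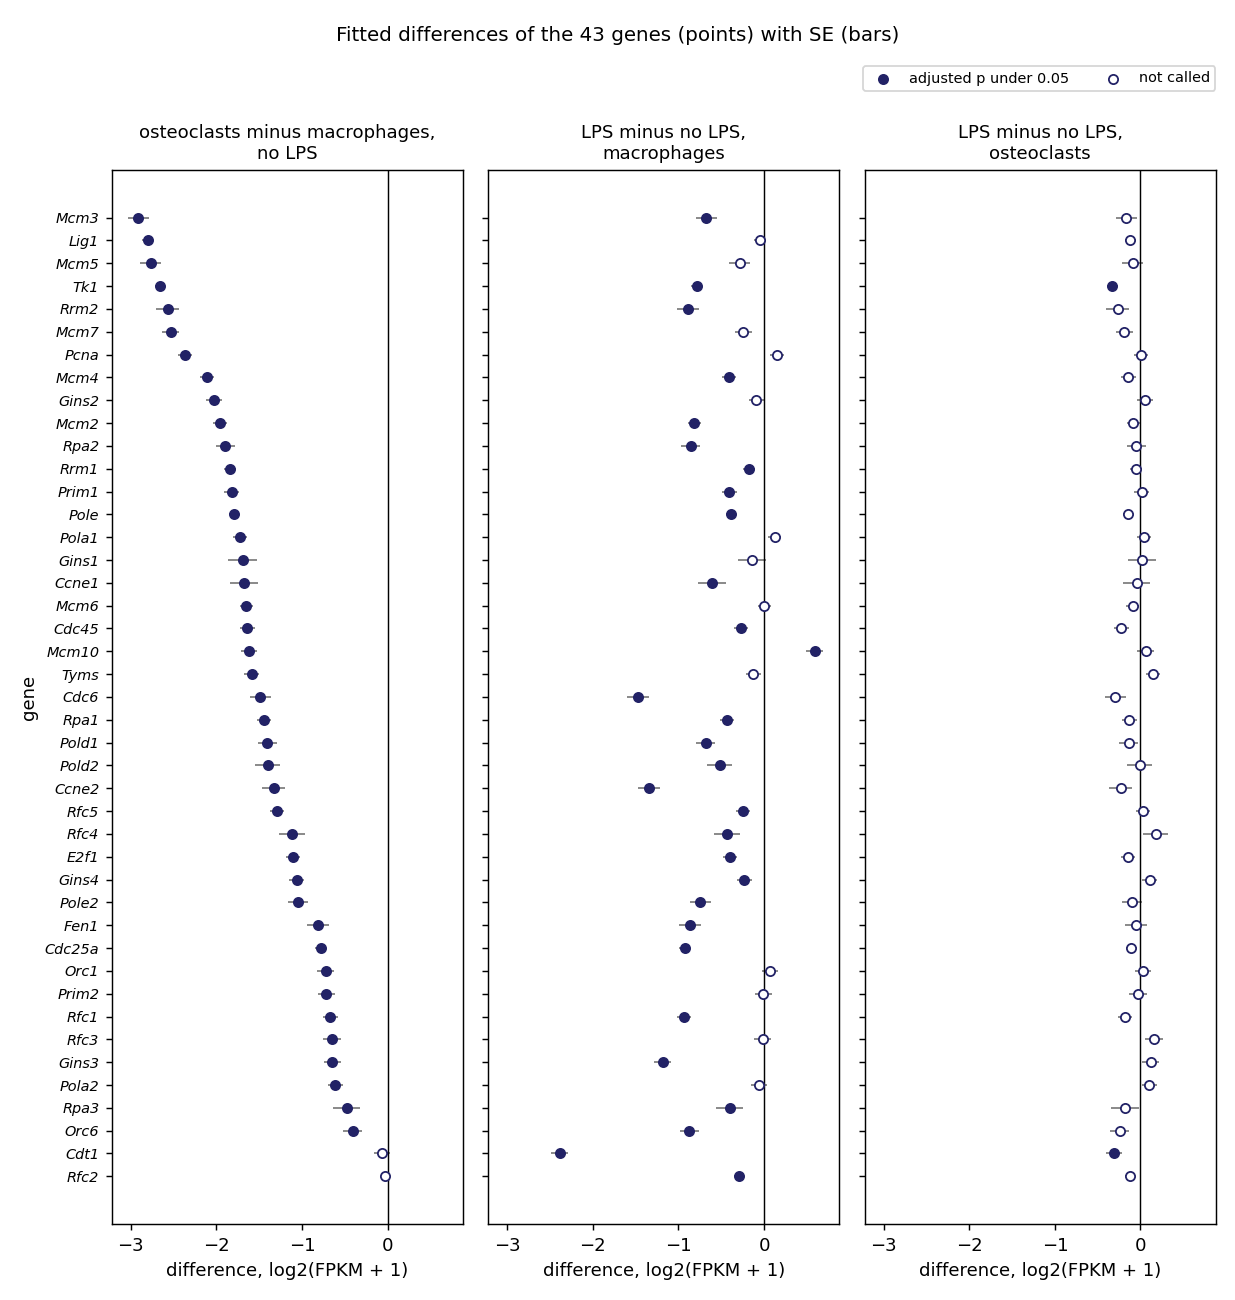
Fitted log2 differences of the 43 genes on the log2(FPKM + 1) scale (horizontal axes), between the untreated cell types and for LPS in each cell type, with genes in rows ordered by the first panel, bars of 1 SE and filled points where the adjusted p was under 0.05. Nearly all points lie left of 0 between the untreated cell types, and nearly all lie close to 0 for LPS in osteoclasts. The scale compresses the changes of low genes, and 10 of the 43 were under 1 FPKM in all untreated osteoclast libraries. For these a point near 0 does not show an absence of response.

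The LPS effect on the set differed between the cell types in its own test for 21 of the 43 genes, or 48.8%, fewer than the 56.6% of all genes tested. The interaction was highest for Cdt1, at a log2 difference of 2.08 ± 0.14 (limma adjusted p = 9.72e-08). Gins3 followed with 1.30 ± 0.14 (limma adjusted p = 6.61e-06), Cdc6 with 1.18 ± 0.17 (limma adjusted p = 0.00011), Ccne2 with 1.11 ± 0.19 (limma adjusted p = 0.000272), and Cdc25a with 0.82 ± 0.09 (limma adjusted p = 9.86e-06). The call of Cdc6 was lost in limma's voom on the recovered reads (limma adjusted p = 0.239). For a gene that LPS lowered in macrophages, a positive value means a smaller fall, or none, in osteoclasts. The lowest interaction was that of Mcm10, -0.53 ± 0.14 (limma adjusted p = 0.00608), which was not called under TPM, with a pseudocount of 0.1 or in limma's voom on the recovered reads. Pcna (-0.14), Mcm6 (-0.09), Pola1 (-0.08) and Lig1 (-0.07) came next, were not called, and turned positive under TPM. The log2(FPKM + 1) scale compresses the changes of low genes, so the interaction was also taken as a log2 ratio of group means without a pseudocount. Its median over the 43 genes was then 0.31, and 20 of the 21 called genes kept their sign; Pole changed to -0.12. On this scale the interaction of Cdt1 was 2.35, that of Gins3 2.08 and that of Cdc6 1.04. Of the 21 calls, 11 held in every alternative in which the gene was tested: Mcm2, Orc6, Cdt1, Gins3, Pold1, Rfc1, Rpa2, Fen1, Rrm2, Ccne2 and Cdc25a. The comparisons share libraries, so the values of a gene in several comparisons are not independent.

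**Figure D5:**
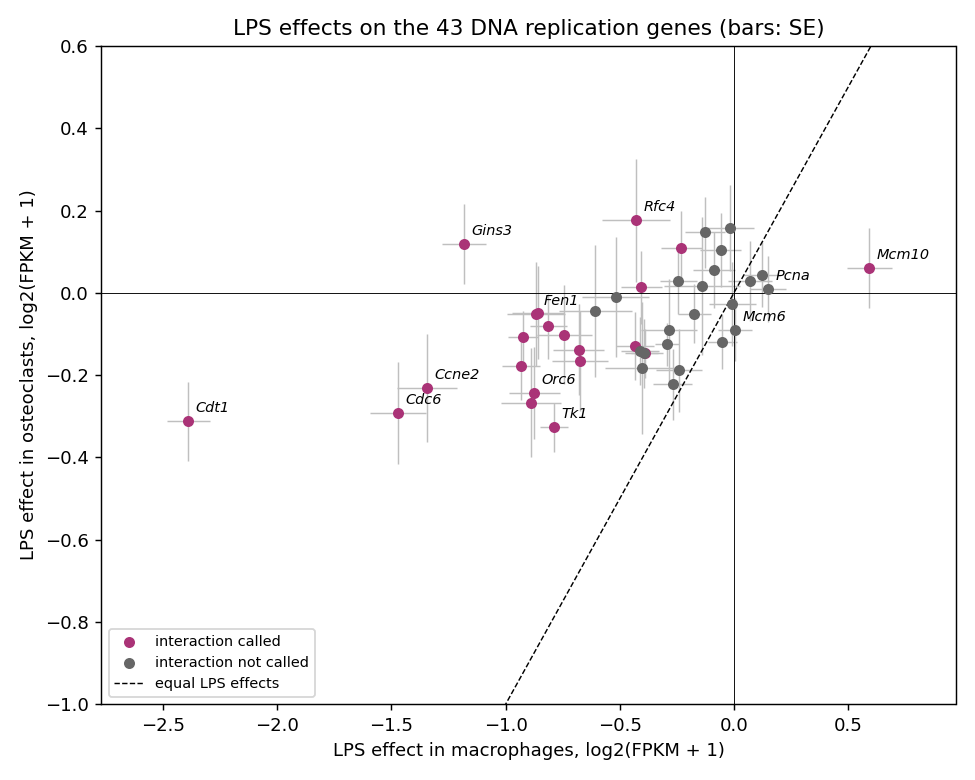
LPS effect in osteoclasts (vertical axis) against the LPS effect in macrophages (horizontal axis) for the 43 genes, as log2 differences on the log2(FPKM + 1) scale, with bars of 1 SE, colour for a called interaction and a dashed line of equal effects. Points spread from -2.39 to 0.59 along the horizontal axis and from -0.33 to 0.18 along the vertical one.

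With LPS in both cell types, 3 genes stood higher in osteoclasts. Cdt1, Gins3 and Rfc2 were called higher in LPS-treated osteoclasts than in LPS-treated macrophages, with log2 differences of 2.01, 0.66 and 0.15 ± 0.05 (limma adjusted p = 0.0212), and the call of Rfc2 was lost in the fit of only the groups compared and without LPS-treated macrophage replicate 1 or LPS-treated osteoclast replicate 3. Orc6 (0.23), Rfc1 (0.09), Cdc25a (0.04), Fen1 (0.00), Ccne2 (-0.22) and Rpa3 (-0.26) were not called in either direction. The other 34 were lower in osteoclasts, led by Lig1, Mcm5, Pcna, Mcm7 and Mcm3. Among them the call of Cdc6 was lost in 5 of 14 alternatives: with no filter, under quantile normalization, without LPS-treated macrophage replicate 2, and without LPS-treated osteoclast replicate 2 or 3 (adjusted p up to 0.15). Without LPS-treated macrophage replicate 2, the count of genes higher in osteoclasts was 5 in place of 3.

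Geminin (Gmnn), the inhibitor that binds Cdt1 after licensing, was measured in the second list of 65 replication genes. Its level was 26.2, 28 and 29.7 FPKM in untreated macrophages, 6.1, 9.97 and 7.43 with LPS, 13.9, 13.2 and 14.5 in untreated osteoclasts and 15, 11.4 and 10.4 in LPS-treated osteoclasts. LPS-treated macrophages were lowest with no overlap. Its log2 difference was -1.73 ± 0.15 (limma adjusted p = 4.8e-07) for LPS in macrophages and -0.96 ± 0.15 (limma adjusted p = 7.79e-05) between the untreated cell types. The ratio of Cdt1 to Gmnn in FPKM was 0.802 to 0.825 in untreated macrophages and 0.404 to 0.518 in LPS-treated ones. It was 1.51 to 1.62 in untreated and 1.15 to 1.63 in LPS-treated osteoclasts. Untreated osteoclasts thus had a higher Cdt1 to Gmnn ratio than untreated macrophages with no overlap. The ratio does not depend on the scaling of a library, and it does not show which gene changed.

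The second list holds further factors for licensing and firing, fork proteins, nucleotide enzymes, chromatin assembly factors and S phase regulators; 63 of the 65 passed the filter, and Dscc1 and Dctd did not. Between the untreated cell types 50 of these were lower and 10 higher in osteoclasts (median log2 difference -0.84). Cyclin A2 (Ccna2, -2.91), the chromatin reader Uhrf1 (-2.75) and the histone chaperone Asf1b (-2.73) were lowest, and the chromatin assembly subunit Chaf1b (1.13), the origin recognition subunit Orc2 (0.70) and the reductase subunit Rrm2b (0.66) were highest, all called. In macrophages LPS lowered 41 and raised 9 (median -0.36). The fall was largest for E2f2 (-2.50), a member of the E2F family, followed by Gmnn and the phosphatase Cdc25b (-1.39). The rises were led by Samhd1, which degrades deoxynucleotides, from 18.1, 19 and 18.9 to 142, 122 and 137 FPKM, and by deoxycytidine kinase, Dck, from 24, 25 and 26 to 78.5, 75 and 81 FPKM. Neither overlapped its untreated range, and the log2 differences were 2.77 ± 0.07 (limma adjusted p = 6.97e-12) and 1.61 ± 0.13 (limma adjusted p = 2.15e-07). In osteoclasts LPS lowered 9 of these genes and raised 2, and between the LPS-treated cell types 44 were lower and 13 higher. The interaction was positive for 32 and negative for 8, with a median of 0.33. The share of this list called in either direction was 95.2% between the untreated cell types (77.8% of all genes), 79.4% for LPS in macrophages (69.9%), 17.5% for LPS in osteoclasts (17.7%), 90.5% between the LPS-treated cell types (83.9%) and 63.5% for the interaction (56.6%). For LPS in osteoclasts it was thus at the level of all genes.

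The 20 mitosis genes were all lower in osteoclasts, without LPS (median log2 difference -2.22) and with it (-1.80). In macrophages LPS lowered 14 of them and raised none (median -0.57), a called share of 70% where that of all genes was 69.9%; in osteoclasts it lowered 2, or 10% against 17.7%. The proliferation marker Mki67 measured 37.6, 36.9 and 38.3 FPKM in untreated and 47.9, 44.4 and 44.6 FPKM in LPS-treated macrophages, and its LPS effect, 0.27 ± 0.15 (limma adjusted p = 0.126), was not called although the groups did not overlap. In untreated osteoclasts it measured 2.83, 2.64 and 2.65 FPKM, a log2 difference of -3.38 ± 0.15 (limma adjusted p = 6.68e-10) from macrophages. The known LPS-induced gene Tnf rose with LPS in both cell types, with log2 differences of 4.73 (macrophages) and 4.03 (osteoclasts).

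Several replication genes lie head to head with a neighbour on the opposite strand, whose values were measured beside theirs. Of 10 tested neighbours whose start lay within 1000 bases on the opposite strand, 3 were lower and 3 higher in untreated osteoclasts, with a median log2 difference of -0.01. That is 30% each way, against 39% lower and 38.8% higher among all genes. The pairs named next were picked from the 10 after their values were seen. Prkdc, whose start lies 466 bases from that of Mcm4, was higher in untreated osteoclasts (log2 difference 0.49) where Mcm4 was lower (-2.11). Prpf38a, 87 bases from Orc1, rose with LPS in macrophages (log2 difference 2.13), while Orc1 was not called (0.07). Abhd12, 659 bases from Gins1, was lower in untreated osteoclasts like its neighbour, by log2 differences of -2.51 and -1.69. Of the 43 genes, 13 have exons that overlap those of an opposite-strand gene: Orc1, Orc6, Mcm7, Cdc45, Gins2, Pole, Rfc2, Rfc4, Rfc5, Fen1, Lig1, Tk1 and Ccne2. The shared part ran from 0.699% of the exon length for Pole to 78.8% for Fen1. The sources used here do not say whether counting was strand-specific, so their levels are uncertain to that extent.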

How the data were processed

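RNA was measured in 12 libraries, 4 groups of 3, grouped by the sample titles. The authors deposited FPKM values for 54532 genes. The submitters' processing notes name fastp, STAR, featureCounts, DESeq2 and the build mm10, with no role or order, and the annotation is not given in the sources used here. Gene lengths implied by the values matched GENCODE M21 for 96.7% of the 25854 genes above 0. Whole reads were recovered for 25777 of these (99.7%, tolerance 0.02 of a read), giving 15651759 to 20281444 reads per library. The denominators of the deposited FPKM were proportional to median-of-ratios size factors of the recovered reads within 5e-07%, which is inferred from the values. Changes are therefore measured against the typical gene.

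The 11335 genes that reached 1 FPKM in 3 or more libraries were fitted with limma 3.58.1 (R 4.3.3) on log2(FPKM + 1), with a variance trend, all 12 libraries in 1 fit of 4 group means. Tests were two-sided, adjusted by Benjamini-Hochberg over all genes tested, and called at an adjusted p under 0.05. On simulated data for LPS in macrophages, 90.1% of 191 changed genes among 10666 tested were called, and 3.91% of calls were false. The simulation changed few genes, by fixed folds, with the same relative spread set for every gene. In the real comparison 69.9% of all genes were called, so these rates need not hold there. Alternatives changed the pseudocount (0.1), the filter (none, or a mean of 5 FPKM or more), the scaling (TPM, quantile normalization), the model (a replicate block, no trend, limma's voom on recovered reads) or the libraries (those of the groups compared, or each left out in turn). Members, lists and motifs were chosen with earlier results of these data known. Values in every library are given for the members with the 5 lowest and 5 highest log2 differences in each contrast and the most abundant member of each role, and for Gmnn and Mki67; Samhd1 and Dck are given in the macrophage libraries. For other lists, the 3 lowest and 3 highest could be named; Gmnn, Mki67 and the neighbours were chosen after their values were seen. Promoter sequences are RefSeq's on GRCm38.p6.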

Additional observations from a re-analysis of the deposited data

Results flagged for a closer look

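The LPS effect differed between osteoclasts and macrophages, by limma's test of the interaction itself, for 21 of the 43 DNA replication genes, or 48.8%, a smaller share than the 56.6% of all 11335 genes tested. For 1 of them, Mcm10, the effect was lower in osteoclasts, by -0.53 on the log2(FPKM + 1) scale. For the licensing genes the interaction was 2.08 for Cdt1, 1.18 for Cdc6, 0.73 for Mcm2, 0.63 for Orc6 and 0.51 for Mcm3. The Gins subunits Gins3 and Gins4 had interactions of 1.30 and 0.34. The polymerase and primase genes Pole2, Pold1, Prim1 and Pole had 0.64, 0.54, 0.42 and 0.24. The clamp loader genes Rfc1 and Rfc4 had 0.75 and 0.61, and the genes of single-strand binding and flap processing, Fen1, Rpa2 and Rpa1, had 0.82, 0.81 and 0.30. Among nucleotide supply genes, Rrm2 and Tk1 had 0.62 and 0.46, and among regulators of S phase entry, Ccne2 and Cdc25a had 1.11 and 0.82. Of these calls, 10 were lost under at least 1 alternative: Mcm10, Cdc6, Mcm3, Gins4, Pole2, Prim1, Pole, Rfc4, Rpa1 and Tk1.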

How the results depend on the processing

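Of 3325 values of single genes under the alternatives, 3127 kept direction and call, 96 lost a call, 87 gained one and 15 reversed; a change of sign between 2 values that were not called was counted as kept. The calls held in every alternative for 40 of 41 genes between the untreated cell types, 23 of 30 for LPS in macrophages, 1 of 2 for LPS in osteoclasts, 35 of 37 between the LPS-treated cell types and 11 of 21 for the interaction. Reversals for LPS in macrophages were Pola1 (-0.48), Mcm6 (-0.64), Pcna (-0.50) and Orc1 (-0.41) under TPM, and Mcm6 (-0.61) and Pcna (-0.73) under quantile normalization. Reversals of the interaction were Pola1 (0.48), Prim2 (0.51), Mcm6 (0.48), Pcna (0.44) and Lig1 (0.49) under TPM, Mcm6 (0.45), Pcna (0.65) and Lig1 (0.37) under quantile normalization, and Pole (-0.12) in voom; the cause was not tested. A mean of at least 5 FPKM left 20 of the 43 genes to test, of which 18 were called, all lower, between the untreated cell types, 16 for LPS in macrophages (16 lower, 0 higher), 18 between the LPS-treated cell types (16 lower) and 10 for the interaction (10 higher, 0 lower). Genes raised by LPS in macrophages numbered 0 under TPM and 2 in voom. Genes lowered by LPS in osteoclasts numbered 4 with a pseudocount of 0.1, 1 with no filter, 4 under TPM, 6 under quantile normalization, 1 with no variance trend and 4 in voom, and 1 to 2 with a library left out. Genes higher in LPS-treated osteoclasts numbered 5 under TPM and 2 to 5 with a library left out. The interaction was called for 41 genes under TPM, all higher, and no gene was called lower (0) there, in voom or with a pseudocount of 0.1. Same-numbered replicates did not deviate together (r from -0.07 to 0.10 over genes). With the replicate number as a block, 41, 29, 2, 38 and 23 genes were called in the 5 contrasts, against 41, 30, 2, 37 and 21 without it. Read numbers limit what can be seen for genes under 1 FPKM in osteoclasts; Cdc6 there had 2 to 14 reads per library with LPS.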
